A study of Mus musculus with 10 samples.

Results

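Abdominal aortas of apolipoprotein E knockout mice (ApoE-/-) fell into a class with high and a class with low Arntl, and the 2 classes are compared here across all genes on the array. Arntl encodes BMAL1, the DNA-binding partner of CLOCK. The arrays were chosen by the measured level of Arntl alone: an array was placed in the Arntl-high class when its Arntl probe read above 1.5 on the log2 scale of the scaled intensity. By this rule 4 of the 10 arrays were Arntl-high, namely the infrarenal and the suprarenal array of pools 6 and 8, and the 6 arrays of pools 1, 11 and 12 were Arntl-low. Arntl read 3.34 and 3.48 on the infrarenal and the suprarenal array of pool 6, and 2.29 and 2.31 on those of pool 8. On the 6 Arntl-low arrays it lay between -0.45 and 0.54, with a median of 0.27. The lowest array above the cut thus read 2.29 and the highest below it 0.54. The class means were 2.86 ± 0.78 (SD, n = 2 pools) and 0.17 ± 0.23 (SD, n = 3 pools), a 6.43-fold difference that is a product of the rule and was not tested.

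The circadian clock of mammalian cells is a feedback loop of transcription. BMAL1 pairs with CLOCK or NPAS2 and activates genes with E-box sequences, among them the Per and Cry genes, whose proteins return to repress the pair. REV-ERB repressors and ROR activators act on Arntl itself, so that Arntl transcripts run roughly opposite in phase to those of Per2 and of the PAR bZIP factors DBP, TEF and HLF, which drive outputs through D-boxes. Smooth muscle and endothelium of the arterial wall both hold such a clock.

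The study compared the infrarenal with the suprarenal abdominal aorta. Male ApoE-/- mice aged 14 weeks were harvested in 5 pools of 2 mice, each aorta was divided into its 2 parts, and 1 array of biotin-labelled cRNA was made from each pooled part. Every array therefore comes from ApoE-/- animals of 1 age, no treatment is named, and both classes share all of this. A pool of 2 mice gives no spread between animals, and its 2 arrays share their animals, so pools are the replicates, 2 Arntl-high against 3 Arntl-low. None of the labels or texts read here gives the hour at which a pool was collected. Because the arrays were divided by a measured level and not by a label, the adjusted p-values below describe how closely a gene follows the division and test no treatment and no time of day. Several of the clock genes below were already known to vary between these arrays when the division was made. An exact permutation test of 2 against 3 pools cannot go below p = 0.1 (one-sided).

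The array carried 36227 probes scaled by the authors to a median intensity near 1 (1.001 to 1.003 per array), and log2 values of any 2 arrays correlated at 0.962 to 0.975. The smooth muscle markers that define the tissue were bright in both classes, with Acta2 between 8.44 and 8.76 on the Arntl-high and between 8.51 and 8.72 on the Arntl-low arrays. Pecam1, an endothelial marker, read 4.11 to 4.66 and 3.92 to 4.64. RNA input was 0.34 to 0.35 µg for the Arntl-high arrays and 0.35 to 0.54 µg for the Arntl-low arrays. The probe for Apoe, the gene knocked out in all animals, was dim on every array (-4.42 to -3.16 on Arntl-high and -5.09 to -2.57 on Arntl-low arrays), although the part of the gene that it covers is not known here. In bulk tissue, fewer cells of a type and less RNA per cell cannot be told apart.

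Hlf was the 1 named gene whose difference between the classes passed the threshold, an adjusted p of 0.05 in limma on the pool means with Benjamini-Hochberg adjustment. It fell on the Arntl-high arrays and was 3.04-fold lower there. Of 35713 probes tested, 2 passed (0.0056%), 1 higher and 1 lower (0.0028% each), and the higher one has no gene name here. With all 10 arrays fitted singly, the region as a covariate and the pool as a random block, 9 of 36060 probes passed (0.025%), 2 higher (0.00555%) and 7 lower (0.0194%). These were probes of Hlf, Ciart, Tef (2 probes), Per3, Hspa1a and Hspa5, 1 probe shared by several genes and 1 without a name. The block had little effect in this fit, since the correlation it assigned within pools was 0.007, and 9 probes also passed with no block. Its p-values, here and below, thus count the 2 arrays of a pool nearly as separate replicates, unlike those over pools. Unadjusted p-values fell below 0.05 for 1778 probes (4.98%), 782 higher (2.19%) and 996 lower (2.79%).

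Among the 17823 genes tested, each represented by its brightest probe, all 4 Arntl-high arrays lay above all 6 Arntl-low arrays for 65 genes (0.365%) and below them for 162 genes (0.909%). The 4 lists of core clock genes held 18 tested members of 20 listed. Of these 18, Clock and Npas2 were apart on the high side, and Per2, Ciart, Tef and Hlf on the low side. In unadjusted p-values below 0.05 the core lists counted 2 genes higher and 7 lower, beside 375 (2.1%) and 577 (3.24%) of all genes. The median difference of the 18 genes was -0.14 on the log2 scale, beside -0.02 for all genes.

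**Figure D1:**
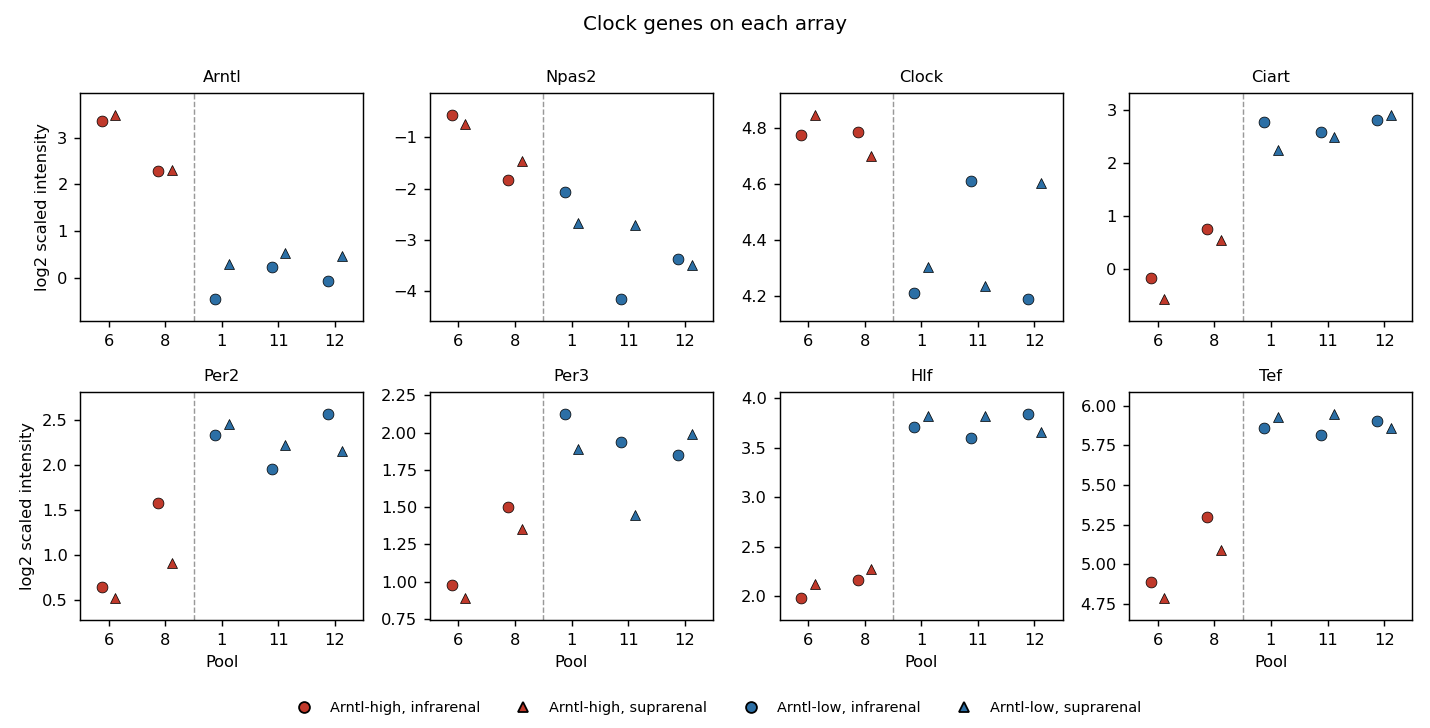
The log2 scaled intensity (vertical axis) of Arntl and 7 clock genes on each of the 10 arrays, by pool (horizontal axis), with Arntl-high arrays in red and Arntl-low arrays in blue, circles for infrarenal and triangles for suprarenal aorta. Arntl, Npas2 and Clock are higher on all 4 arrays of pools 6 and 8 than on the other 6, and Ciart, Per2, Hlf and Tef are lower on all 4, while for Per3 the infrarenal array of pool 8 lies above the lowest Arntl-low array at 1.44.

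The partners of BMAL1 had higher means where Arntl was high, without passing the threshold. Npas2, which can replace CLOCK as the partner of BMAL1, read -0.57 and -0.74 in pool 6 (infrarenal and suprarenal) and -1.83 and -1.47 in pool 8. On the Arntl-low arrays it ran from -4.16 to -2.07 with a median of -3.03, so that the classes did not overlap although the whole range was dim. The difference was 1.92 ± 0.44 on the log2 scale (SE), with a 95% interval of 0.90 to 2.95 and an adjusted p of 0.867 (limma). It was 2.00 in the infrarenal and 1.85 in the suprarenal arrays, and 0.88 when a constant was added to all intensities in place of the floor, which compresses dim probes. Clock itself read 4.78 and 4.85 in pool 6 and 4.79 and 4.70 in pool 8, against 4.19 to 4.61 (median 4.27) on the Arntl-low arrays. These 4 arrays sat above the other 6 by a small step of 0.42 ± 0.10, which is 1.34-fold (adjusted p = 0.931, limma), and the step was 0.21 with RNA input as a covariate. Arntl2, a paralog of Arntl, differed by 0.03 ± 0.14 with overlapping arrays.

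Of the 8 repressors of the loop, 7 had lower means on the Arntl-high arrays, beside 9948 of the 17823 genes tested. At an unadjusted p below 0.05, 4 were lower, beside 3.24% of all genes, and none passed the threshold with the pools as replicates. Ciart, which encodes CHRONO, a repressor that binds BMAL1, had the largest difference of any gene tested. It read -0.17 and -0.57 in pool 6 and 0.76 and 0.55 in pool 8, against 2.25 to 2.90 with a median of 2.68 on the Arntl-low arrays. More than 1 log2 unit separated the nearest arrays of the 2 classes. The difference was -2.49 ± 0.27 (95% interval -3.13 to -1.85), or 5.61-fold, with an adjusted p of 0.219 over pools and of 0.00591 with the region covariate and the pool as a random block (limma). The 250 bases upstream of the Ciart start site (RefSeq, build GRCm38.p6, chr3:95882229-95882478, minus strand) are shown because they hold the E-box CACGTG, in capitals, at 3 places, with the first base 116, 58 and 44 bases from the start.
Ciart: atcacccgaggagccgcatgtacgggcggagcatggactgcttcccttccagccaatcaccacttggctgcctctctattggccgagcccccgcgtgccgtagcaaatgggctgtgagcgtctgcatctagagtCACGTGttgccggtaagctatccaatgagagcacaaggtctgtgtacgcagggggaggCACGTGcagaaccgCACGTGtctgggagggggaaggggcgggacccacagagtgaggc
This motif occurs in 6.02% of the 32851 promoter windows of that length, both strands being 1 search since it is its own reverse complement. Of the 21 core genes including Arntl, 18 have a window in the table, and 5 of them hold the E-box (Per1, Cry1, Ciart, Bhlhe41 and Tef). These 18 genes have 24 windows, some more than 1 each, whereas the 6.02% is a share of windows and not of genes. A match describes these letters only.

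Per2, a repressor whose protein returns to the nucleus with the CRY proteins, read 0.64 and 0.52 in pool 6 and 1.57 and 0.91 in pool 8. The Arntl-low arrays lay between 1.95 and 2.56 with a median of 2.27, above all 4. The difference was -1.37 ± 0.20 (95% interval -1.83 to -0.90), 2.58-fold, with an adjusted p of 0.407 over pools and 0.0559 with the block (limma).

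Per3, a paralog with a lesser part in keeping the rhythm, has 3 probes, and the brightest read 0.98 and 0.89 in pool 6 and 1.36 on the suprarenal array of pool 8. The Arntl-low arrays ran from 1.44 to 2.12 (median 1.91), and the infrarenal array of pool 8 lay just above the lowest of them, so that the classes overlapped, and the difference was -0.69 ± 0.17 (adjusted p = 0.961, limma). The dimmer Per3 probes were apart, with differences of -1.19 ± 0.12 and -1.34 ± 0.22, the first of them past the threshold with the block (adjusted p = 0.0258, limma) and not over pools (0.153). The Per3 window (RefSeq, GRCm38.p6, chr4:151044666-151044915, minus strand) is shown for its D-box TTATGTAA, in capitals, which starts 205 and 158 bases upstream and which 0.819% of windows hold on either strand.
Per3: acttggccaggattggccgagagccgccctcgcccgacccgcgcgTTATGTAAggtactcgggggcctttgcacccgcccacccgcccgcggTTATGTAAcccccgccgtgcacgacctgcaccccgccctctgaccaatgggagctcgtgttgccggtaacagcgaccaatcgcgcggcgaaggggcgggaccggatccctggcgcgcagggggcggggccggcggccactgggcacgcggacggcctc
The other form searched, TTACGTAA, is in 0.113% of windows, and the ROR element TAGGTCA, found upstream of Nfil3, in 2.23%.

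Per1, Cry1 and Cry2, the remaining members of the Per and Cry families, did not separate. Their differences were -0.04 ± 0.13, -0.17 ± 0.15 and 0.00 ± 0.15, with arrays of the classes overlapping in each. Cry1 read 0.64 and 0.58 in pool 6 but 0.22 and 0.22 in pool 8, against 0.49 to 0.90 (median 0.52) on the Arntl-low arrays. Pool 6 thus lay above most of the Arntl-low arrays and pool 8 below all of them. The E-box repressors Bhlhe40 (DEC1) and Bhlhe41 (DEC2) differed by -0.29 ± 0.15 and -0.69 ± 0.25, both with overlap. The difference of Bhlhe41 was -1.44 in the infrarenal arrays, where pool 8 read -3.73, and 0.05 in the suprarenal arrays. A second Bhlhe41 probe differed by -1.04 ± 0.29, with -0.09 in the infrarenal and -1.99 in the suprarenal arrays, so the 2 probes disagree on the region.

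The arm of the loop that acts on Arntl itself, and Nfil3, which shares its list, showed small differences. Nr1d1, which encodes REV-ERBα, read 5.76 and 5.98 in pool 6 and 5.53 and 6.01 in pool 8, and 5.80 to 6.02 (median 5.91) on the Arntl-low arrays. The classes lay within 1 range, and the interval of the difference was -0.33 to 0.14 around -0.09. Nr1d2, which encodes REV-ERBβ, differed by -0.40 ± 0.15, by -0.72 in the infrarenal arrays and by -0.08 in the suprarenal ones. Rora, an activator at the same elements, differed by -0.12 ± 0.12 and Nfil3, a repressor at D-boxes, by 0.21 ± 0.11. Rorb, a relative expressed mainly in nervous tissue, gave 0.48 ± 0.39, with a second probe at -0.98. All 5 overlapped between the classes.

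The PAR bZIP factors, which read clock time out through D-boxes, were the group in which both tested members were lower on all Arntl-high arrays. Hlf (hepatic leukaemia factor) read 1.98 and 2.13 in pool 6 and 2.17 and 2.28 in pool 8. On the Arntl-low arrays it lay between 3.60 and 3.84 with a median of 3.77. Each class was narrow, with means of 2.14 ± 0.12 (SD, n = 2 pools) and 3.74 ± 0.03 (SD, n = 3 pools). Hlf fell by 1.60 on the log2 scale, with a difference of -1.60 ± 0.10 (SE, 95% interval -1.84 to -1.37), 3.04-fold, at an adjusted p of 0.00694 (limma over pools). The difference was -1.64 in the infrarenal and -1.56 in the suprarenal arrays. Its size held between -1.69 and -1.50 in all 18 alternative settings. The call was lost when pool 6, pool 8 or pool 11 was left out (adjusted p = 0.139, 0.0728 and 0.12), in either region alone (0.1 and 0.24) and without the mean-variance trend (0.406).

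Tef (thyrotroph embryonic factor) read 4.89 and 4.79 in pool 6 and 5.30 and 5.09 in pool 8, below the 5.82 to 5.95 (median 5.88) of the Arntl-low arrays. Its difference was -0.87 ± 0.12 (95% interval -1.16 to -0.58), 1.83-fold, with an adjusted p of 0.407 over pools and 0.0239 with the block (limma). A second Tef probe was also apart at -1.02 ± 0.14, and the remaining, much dimmer one overlapped at -0.21 ± 0.22. Tef has 2 windows in the table, each with 1 E-box, and the one with its E-box 127 bases upstream (RefSeq, GRCm38.p6, chr15:81802423-81802672, plus strand) is shown with it in capitals.
Tef: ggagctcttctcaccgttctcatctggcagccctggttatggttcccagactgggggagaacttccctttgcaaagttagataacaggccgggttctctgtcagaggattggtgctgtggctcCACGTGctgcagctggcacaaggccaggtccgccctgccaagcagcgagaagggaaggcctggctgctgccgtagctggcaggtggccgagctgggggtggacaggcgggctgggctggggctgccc
The third factor, Dbp, has no probe of its own in the annotation. Probe 49082, annotated jointly to Dbp, Sphk2 and Pip5k1c, read 5.20, 5.19, 5.55 and 5.85 on the Arntl-high arrays and 6.44 to 6.91 on the others, a difference of -1.29 ± 0.16 that is assigned to none of the 3 genes (adjusted p = 0.377 over pools and 0.0211 with the block, limma).

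**Figure D2:**
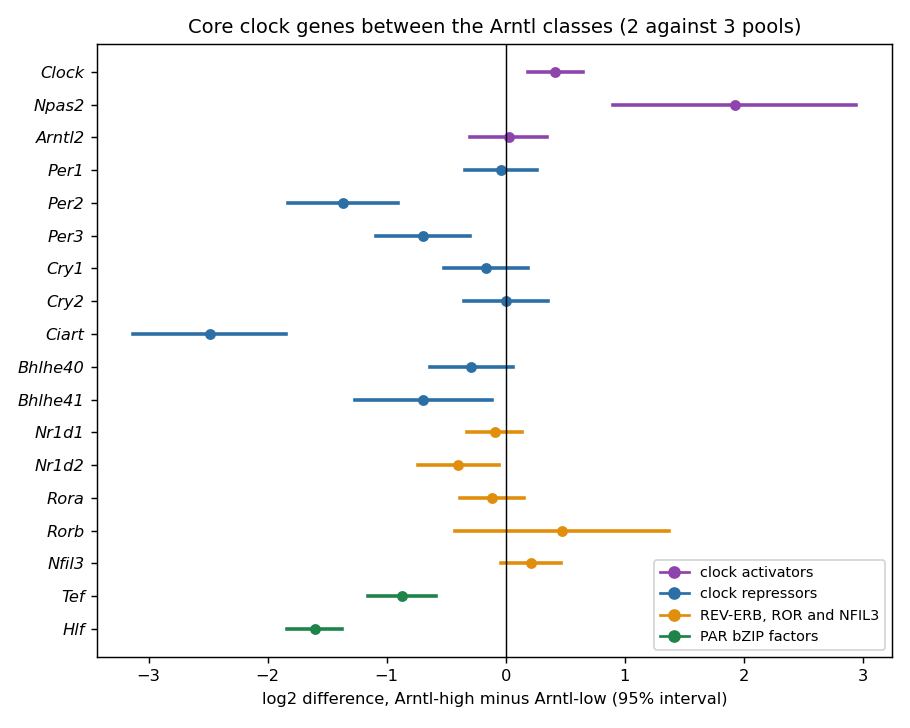
The log2 difference of each of the 18 tested core clock genes, Arntl-high minus Arntl-low (horizontal axis), with its 95% interval over 2 against 3 pools and the colour giving the list. Npas2 at 1.92 and Ciart at -2.49 lie furthest from 0, and Hlf at -1.60 has the narrowest interval among the large differences. The intervals of Arntl2, Per1, Cry1, Cry2, Bhlhe40, Nr1d1, Rora, Rorb and Nfil3 include 0.

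The 2 Arntl-high pools were not alike. Pool 6, with the higher Arntl mean (3.41 against 2.30), also lay further from the Arntl-low mean than pool 8 for 8 of the 9 core genes with an unadjusted p below 0.05, the exception being Bhlhe41. Ciart averaged -0.37 in pool 6, 0.66 in pool 8 and 2.63 in the Arntl-low pools. Npas2 averaged -0.65, -1.65 and -3.08 in the same order, and Per2 0.58, 1.24 and 2.28. For Hlf the Arntl-high pools were close, at 2.05 and 2.22, beside 3.74. Those of Clock were also close, at 4.81 and 4.74, beside 4.36. The dimmer Per3 probes were split, with -0.70 in pool 6 and -0.71 in pool 8 for one, and -2.64 and -2.24 for the other. This order over pools was read after the values were known and was not tested. The share of all genes for which pool 6 lay further away was not counted.

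Several common outputs of the clock had lower means on the Arntl-high arrays. Of 21 tested members of 26 listed, 7 were lower and none higher at an unadjusted p below 0.05, beside 3.24% and 2.1% of all genes. On all 4 arrays 5 were lower, beside 0.909% of all genes, and the median difference was -0.10, beside -0.02. None passed the threshold. Wee1, a kinase that delays entry into mitosis, read -0.44 and 0.07 in pool 6 and 0.36 and 0.91 in pool 8, against 0.93 to 1.73 (median 1.38). The highest Arntl-high array nearly touched the lowest Arntl-low array, and the difference was -1.13 ± 0.27 (adjusted p = 0.931, limma). Tspan4, a tetraspanin, read 4.15, 4.33, 4.62 and 4.76, below the 5.09 to 5.35 of the others, at -0.74 ± 0.15. Usp2, a deubiquitinase, read 2.72, 2.98, 3.01 and 3.14, below 3.24 to 4.05, at -0.62 ± 0.19. Pik3ip1, a negative regulator of PI3 kinase, and the zinc finger factor Klf13, both named after their values were seen, were apart at -0.46 ± 0.12 and -0.32 ± 0.11. In the list of 23 tested proteins of clock turnover and cofactors, Usp2, already given above, was the 1 gene apart, beside 0.909% of all genes on the low side. The median of that list was -0.07.

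Several chaperone genes had higher means on the Arntl-high arrays, and some were higher on all 4. Among 15 tested heat shock genes 4 were higher and none lower at an unadjusted p below 0.05, beside 2.1% and 3.24% of all genes, and 3 were higher on all 4 Arntl-high arrays, beside 0.365% of all genes. Hspa1a, an inducible HSP70, read 5.87 and 5.87 in pool 6 and 5.69 and 5.80 in pool 8, against 4.70 to 5.18 (median 4.93). The classes did not overlap, with a difference of 0.89 ± 0.13 (95% interval 0.59 to 1.18), 1.85-fold, at an adjusted p of 0.407 over pools and 0.0258 with the block (limma). Its neighbour and near-identical copy Hspa1b read 6.21, 6.23, 5.99 and 6.29, against 5.06 to 5.68 (median 5.36), a difference of 0.83 ± 0.11. The probes may not separate the 2 copies. Hspa5, which encodes BiP, the HSP70 of the endoplasmic reticulum, read 5.87 and 5.93 in pool 6 and 5.86 and 6.06 in pool 8, above the 5.17 to 5.55 (median 5.21) of the Arntl-low arrays. It differed by 0.63 ± 0.10 (95% interval 0.39 to 0.88), 1.55-fold, at an adjusted p of 0.526 over pools and 0.0378 with the block (limma). Hsph1, an HSP110, overlapped by 1 array at 0.54 ± 0.14. Other members of the list did not follow. Hspa8, the constitutive HSP70, differed by 0.02, Hspb1 by 0.01, and the co-chaperones Dnajb1 and Bag3 by -0.04 and -0.13, and the median of the list was 0.12.

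Genes of the unfolded protein response went in both directions. Of 15 tested, 4 were higher and 2 lower at an unadjusted p below 0.05 (2.1% and 3.24% of all genes), and the 4 were above on all arrays (0.365% of all genes): Hspa5, which is on both lists, Creld2, Manf and Sdf2l1. Creld2, a protein of the endoplasmic reticulum, read 5.74, 5.95, 5.54 and 5.94, against 4.81 to 5.31 (median 5.08), a difference of 0.73 ± 0.13 at an adjusted p of 0.693 over pools (limma). Manf, a secreted protein of the same response, differed by 0.47 ± 0.11, and Sdf2l1, a partner of ER chaperones, by 0.69 ± 0.19. The 2 that were lower were Ddit3 (CHOP) at -0.33 ± 0.14 and Herpud1 at -0.32 ± 0.13. Hsp90b1, Pdia4, Calr and Atf4 differed by 0.05, 0.01, -0.01 and 0.05. The windows of Hspa5 (RefSeq, GRCm38.p6, chr2:34771840-34772089, plus strand) and Creld2 (chr15:88819396-88819645, plus strand) are shown because each holds the ER stress element, CCAAT followed at a fixed spacing by CCACG, its fixed letters in capitals, 65 bases upstream in Hspa5 and on the reverse strand 126 bases upstream in Creld2. This motif is in 0.113% of windows on either strand.
Hspa5: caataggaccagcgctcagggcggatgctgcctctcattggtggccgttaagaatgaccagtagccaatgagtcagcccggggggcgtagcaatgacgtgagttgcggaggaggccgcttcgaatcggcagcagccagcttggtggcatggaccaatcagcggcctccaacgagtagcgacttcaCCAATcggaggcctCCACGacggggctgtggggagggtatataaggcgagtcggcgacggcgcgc
Creld2: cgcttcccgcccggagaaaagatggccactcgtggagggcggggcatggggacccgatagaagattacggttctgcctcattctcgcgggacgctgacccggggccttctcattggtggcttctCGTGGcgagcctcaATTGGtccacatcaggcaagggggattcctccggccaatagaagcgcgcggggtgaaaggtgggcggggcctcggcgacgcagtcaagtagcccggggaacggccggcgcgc
The heat shock element (3 GAA units in alternating orientation) is in 0.466% of windows and was not found in those of Hspa1a, Hspa1b or Hsph1, nor the ER stress element in that of Sdf2l1. Each motif was searched only as an exact match of its fixed letters and spacing. Whether the windows of Hspa1a, Hspa1b and Hsph1 hold a heat shock element with mismatches was not tested. RNA input was lower for the Arntl-high than for most Arntl-low arrays. With input as a covariate the differences were 0.71 for Hspa1a, 0.58 for Hspa5 and 0.57 for Creld2, none past the threshold. The part of RNA input in them was not tested beyond this.

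**Figure D3:**
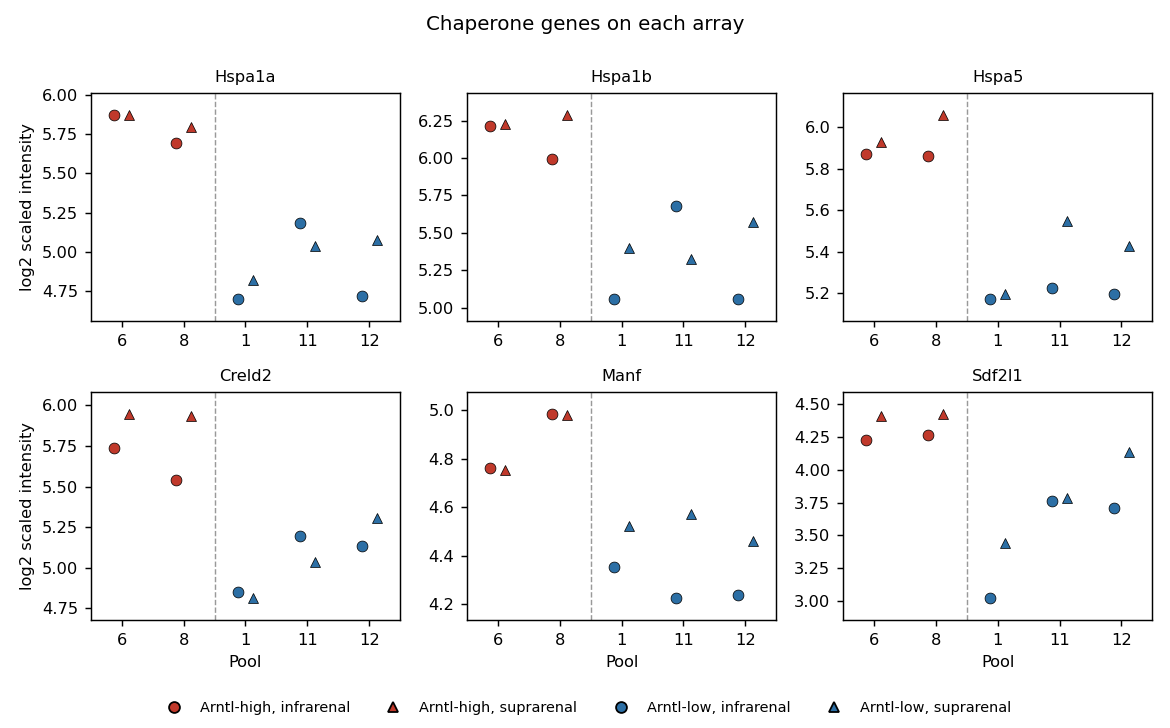
The log2 scaled intensity (vertical axis) of 6 chaperone genes on each array by pool (horizontal axis), colours and symbols giving class and region as named in the legend. All 4 Arntl-high arrays lie above all 6 Arntl-low arrays in each panel, by the widest margin for Hspa1a (5.69 against 5.18) and the narrowest for Sdf2l1 (4.22 against 4.14).

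The 6 genes of smallest p on each side among those with arrays apart include 4 that are on no list. Zfp185, a LIM domain protein of the actin cytoskeleton, read 1.81, 2.63, 1.71 and 2.18 on the Arntl-high and 0.78 to 1.41 on the Arntl-low arrays, a difference of 1.02 ± 0.15. B3galt2, a galactosyltransferase, read 2.14, 3.58, 2.59 and 3.01, against 1.24 to 2.00, a difference of 1.14 ± 0.19. In both genes the suprarenal difference was larger than the infrarenal one, 1.47 against 0.57 and 1.67 against 0.60. On the low side Mthfd1l, a mitochondrial enzyme of folate metabolism, read 0.16, -0.16, 0.21 and 0.04, against 0.73 to 1.24, at -0.85 ± 0.13. Rev1, a polymerase of translesion synthesis, read 1.31, 1.19, 1.56 and 1.35, against 1.87 to 2.12, at -0.67 ± 0.11. Their adjusted p-values over pools were 0.407, 0.526, 0.43 and 0.526 (limma), so that none passed. Probe 116010, which has no gene name here, was lower on all Arntl-high arrays at -1.70 ± 0.25.

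Probe 95055, the second that passed over pools, followed the class in 1 region only. It read 5.79 and 5.78 on the infrarenal arrays of pools 6 and 8, but 1.44 and 1.42 on their suprarenal arrays, within the 1.19 to 1.90 of the Arntl-low arrays. Its pool means differed by 2.08 ± 0.11 (adjusted p = 0.00394, limma), while the arrays of the classes overlapped and the fit with the block gave an adjusted p of 0.947. The class difference was 4.30 in the infrarenal and -0.14 in the suprarenal arrays. No probe passed the test of whether the class difference itself varied with region (limma on the differences within pools, 0 of 35713, 0.0%, with 5.31% at an unadjusted p below 0.05 and a smallest adjusted p of 0.819). Even probe 95055 did not pass it (adjusted p = 0.819, limma), so the absence of calls does not show that the regions agree.

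Genes that respond to hormones, feeding and handling were described by their lists, and none of their members passed the threshold. Of 16 glucocorticoid-responsive genes, 1 was higher and 3 lower at an unadjusted p below 0.05, beside 2.1% and 3.24% of all genes. The inhibitor of NF-κB Nfkbia was apart at -0.37 ± 0.12, and the FK506-binding protein gene Fkbp5 overlapped at -0.72 ± 0.36. Among 22 immediate early genes, which respond within minutes to stimulation, 16 had higher means, beside 44.2% of all genes. None was apart, and the median was 0.13. That median was -0.17 without pool 6. Atf3 read 4.06 and 3.76 in pool 6 but 1.80 and 2.14 in pool 8, the latter within the 1.51 to 2.37 of the Arntl-low arrays, so its difference of 1.02 ± 0.47 was 0.05 without pool 6. The cold-inducible genes Rbm3 and Cirbp differed by -0.49 ± 0.18 and -0.20 ± 0.11 with overlap.

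Most genes of the lipid lists had positive differences, and none had its arrays apart between the classes. In fatty acid synthesis 13 of 14 genes were above 0 with a median of 0.52, beside 44.2% of all genes above 0. At an unadjusted p below 0.05, 3 were higher (Scd2, Me1 and Srebf1), beside 2.1% of all genes. The median of the fatty acid synthesis list was -0.04 in the infrarenal arrays, 1.01 in the suprarenal arrays and 0.15 without pool 12. Adipocyte markers ran with it, as their mean level differed by -0.29 in the infrarenal and 0.61 in the suprarenal arrays, and their part in the result was not tested. In sterol synthesis 15 of 16 genes were above 0 with a median of 0.29. At an unadjusted p below 0.05, 2 were higher (Cyp51 at 0.42 ± 0.15 and Lss at 0.44 ± 0.18), beside 2.1% of all genes. The median of the sterol list was 0.14 in the infrarenal and 0.39 in the suprarenal arrays. Scd2 differed by 0.52 and 0.76 in the 2 regions. In fasting and fatty acid oxidation 12 of 13 were above 0 with a median of 0.17. That median was -0.25 in the infrarenal arrays and -0.11 without pool 12. Angptl4, an inhibitor of lipoprotein lipase, differed by 0.16 in the infrarenal and 0.90 in the suprarenal arrays.

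**Figure D4:**
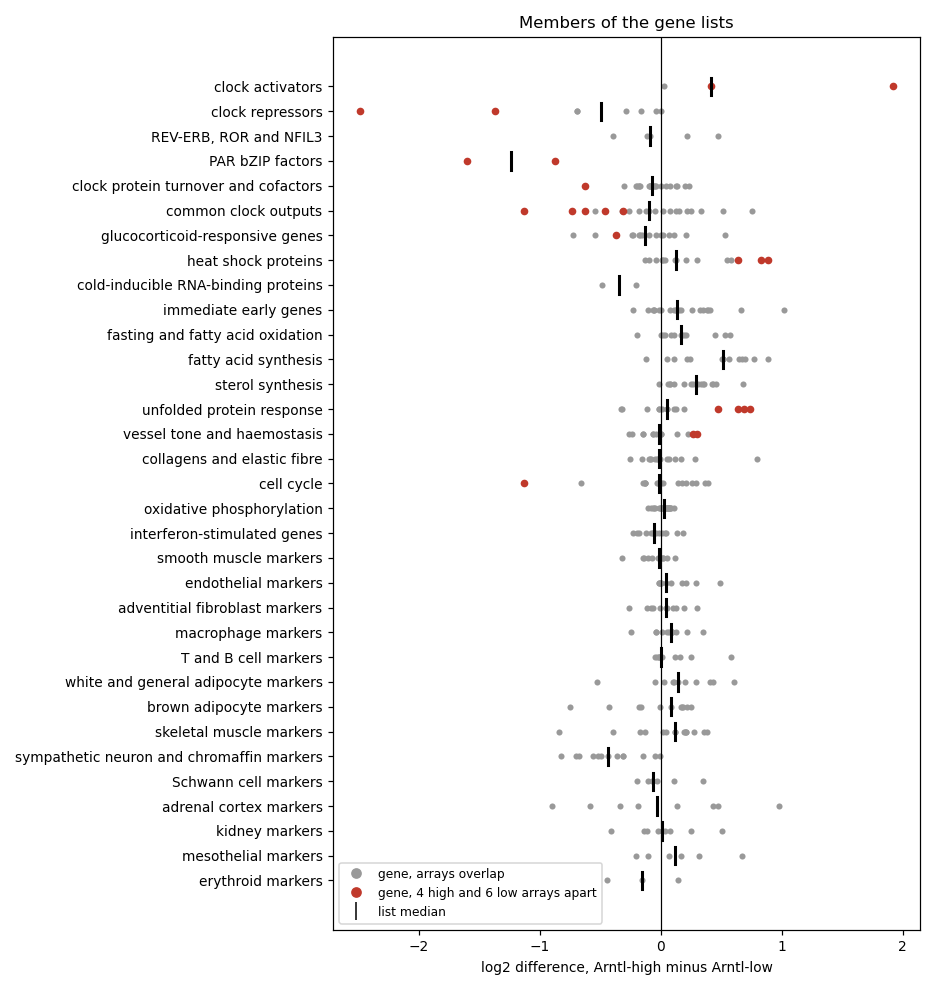
Each point is 1 tested gene placed by its log2 difference, Arntl-high minus Arntl-low (horizontal axis), in the row of its list, red where the 4 Arntl-high and 6 Arntl-low arrays do not overlap, with a black bar at the list median. Red points stand in the rows of clock activators, repressors, PAR bZIP factors and outputs, in those of heat shock and unfolded protein response genes and in a few others, and none stands in a row of cell type markers.

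Genes of vessel function were mostly level between the classes. Among 15 genes of vessel tone and haemostasis the median was -0.01, and 2 were apart on the high side, beside 0.365% of all genes. These were Nos3 (endothelial nitric oxide synthase) at 0.30 ± 0.11 and Edn1 (endothelin 1) at 0.27 ± 0.10. Both were apart by a narrow margin. The lowest Arntl-high and the highest Arntl-low array read 1.15 and 1.08 for Nos3, and 3.18 and 3.16 for Edn1. Collagens and elastic fibre genes (16 tested, median -0.02) and oxidative phosphorylation genes (26 tested, median 0.03) had none apart. The cell cycle list (19 tested) had 1 apart on the low side, beside 0.909% of all genes, namely Wee1, which is also on the list of outputs. Of 12 smooth muscle markers none was apart, their median was -0.02, and their mean level lay between 6.24 and 6.48 on the Arntl-high and between 6.24 and 6.54 on the Arntl-low arrays. Endothelial markers averaged 3.64 to 3.95 and 3.37 to 3.80, with Cldn5, a junction protein, overlapping at a difference of 0.49 ± 0.18.

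Markers of tissue that surrounds the aorta varied widely from array to array within both classes. The mean of 12 brown adipocyte markers lay between 2.69 and 4.86 on the Arntl-high and between 2.39 and 5.21 on the Arntl-low arrays, and that of 15 skeletal muscle markers between 0.68 and 3.35 and between 0.60 and 4.47. None of these markers was apart between the classes or at the floor on every array. For 13 markers of sympathetic neurons and chromaffin cells the means were 0.58 to 2.33 and 0.34 to 3.28. All 13 had lower means on the Arntl-high arrays (median -0.44), beside 9948 of the 17823 genes tested. Yet the mean level of these 13 differed by 0.32 in the infrarenal and by -1.15 in the suprarenal arrays. With the score of each of these tissues as a covariate the fit with the block called 16, 8 and 7 probes of 36060 (0.0444%, 0.0222% and 0.0194%), and Hlf, Ciart and Tef passed in all 3. Their differences then lay between -1.60 and -1.58 for Hlf, -2.51 and -2.49 for Ciart and -0.87 and -0.84 for Tef. With RNA input as the covariate in place of a tissue score, the fit with the block called 4 of 36060 probes.

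**Figure D5:**
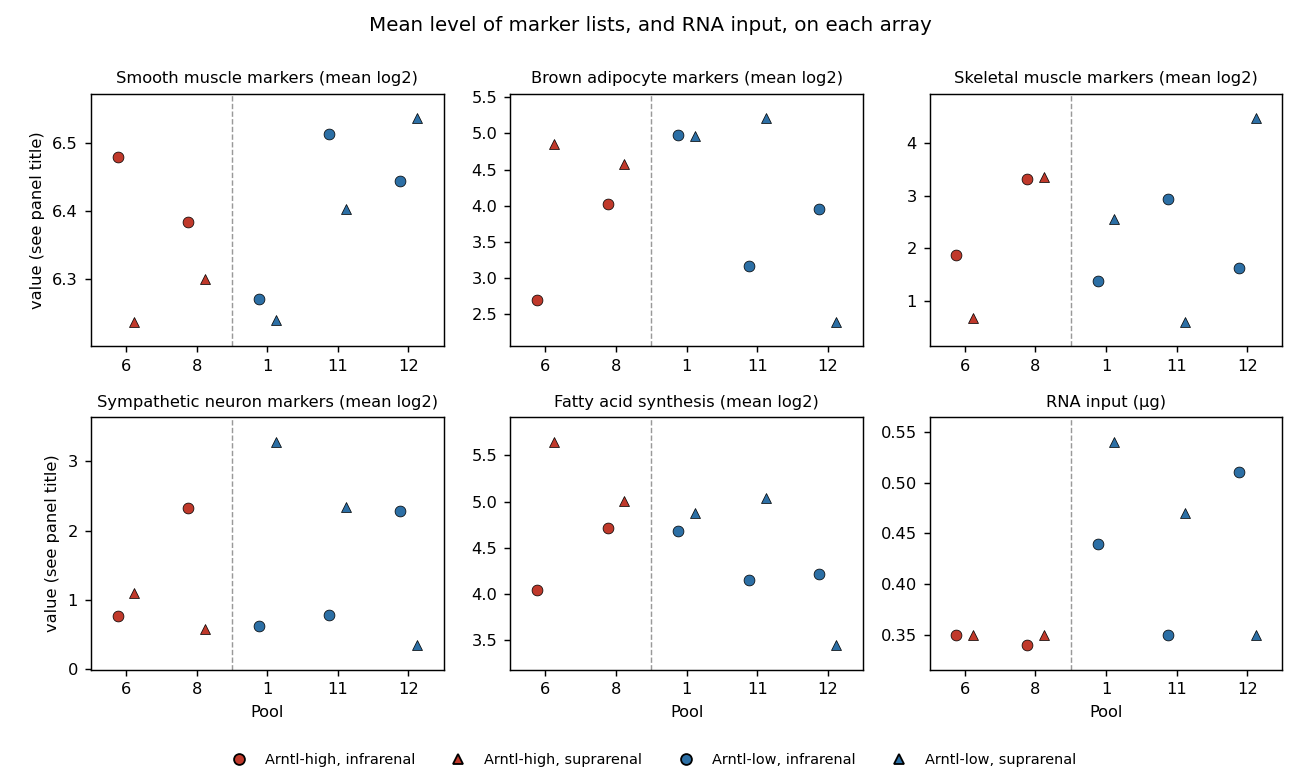
The mean log2 scaled intensity of 5 marker or pathway lists, and in the last panel the RNA input in µg, for each array by pool (horizontal axis), with colours and symbols as named in the legend. Smooth muscle markers stay between 6.24 and 6.54 on all arrays, brown adipocyte markers range from 2.39 to 5.21 and skeletal muscle markers from 0.60 to 4.47, and RNA input is 0.34 to 0.35 µg on the Arntl-high arrays.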

How the data were processed

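Gene expression was measured on 10 arrays of abdominal aorta, 5 infrarenal and 5 suprarenal, with 36227 probes. The authors deposited 1 linear intensity per probe and array, scaled per array to a median near 1. Scanner, background correction and scaling: not given in the sources used here. Some intensities were at or below 0 (1755) or missing (1968). Deposited intensities under 0.0278 (percentile 1 of positive values) were raised to that floor and log2 was taken, the floor being -5.17. Probes were named from the platform annotation, with symbols updated by Entrez identifier to RefSeq (21487 of 21615 probes with 1 symbol). The 681 probes with several symbols and 13931 with none were tested but not named. A gene was represented by its probe with the highest mean.

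The class comparison used limma 3.58.1 in R 4.3.3 (lmFit, eBayes with trend) on the mean of the 2 arrays of a pool, 2 pools against 3, leaving out Arntl and 513 probes with missing values. The Benjamini-Hochberg adjustment ran over 35713 probes. The median 95% interval reached 0.38 to either side of a log2 difference, and the number of pools limits the precision. Alternatives were the arrays with region as a covariate, with or without the pool as a random block, each region alone, quantile normalization, an offset, the dimmest 30% of probes left out, no trend, each pool left out, probes averaged, and RNA input or a tissue score as a covariate. The pairing comes from the series' design text, since the 2 parts of a pool share their animals. The deviations of the 2 arrays of a pool from their means correlated at -0.092 to 0.045, and the consensus correlation was 0.007. The pool-mean fit and the array fit with no block were tested on simulated data in which all arrays were independent. The fits with the block, RNA input or a tissue score were not tested in this way.

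The classes, the 33 gene lists and the named genes were chosen with earlier results of these data known. Named genes were Arntl, all core clock members, the 12 largest called differences on each side (filled up to 6 by smallest p among genes whose arrays do not overlap), the 2 members of smallest p of each other list, and Apoe. Genes given outside this rule were chosen after their values were seen. So were the ER stress and heat shock motifs. Promoters are the 250 bases upstream of RefSeq start sites (GRCm38.p6).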

Additional observations from a re-analysis of the deposited data

Results flagged for a closer look

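In 160 sets of arrays of 1 class and 1 named gene, 5 single arrays stood apart from the rest of their class by Dixon's criterion, where chance gives about 8. Cry1, a repressor of the clock, read 0.90 on suprarenal pool 1, while the other Arntl-low arrays lay between 0.49 and 0.55. Nfil3, a repressor at D-boxes, read 1.69 on infrarenal pool 11, below the 1.95 to 2.09 of the other Arntl-low arrays. Bst2, an interferon-stimulated gene, read 4.19 on infrarenal pool 12, below 4.52 to 4.66. On infrarenal pool 6 Bhlhe40, an E-box repressor, read 1.62 where the other Arntl-high arrays lay between 2.21 and 2.31, and Edn1 (endothelin 1) read 3.54 where the others lay between 3.18 and 3.22. The difference of Edn1 between the classes was 0.43 in the infrarenal and 0.10 in the suprarenal arrays.

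Apoe, the gene knocked out in all animals, differed between the classes by 1.61 in the infrarenal and by -1.12 in the suprarenal arrays, with all Arntl-high arrays above the Arntl-low arrays in one region and below them in the other. These are differences among dim values, from -5.09 to -2.57, and the test of the difference between regions gave an adjusted p of 0.819 (limma).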

How the results depend on the processing

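The number of probes past the threshold was 2 over pool means. It was 9 with the region covariate and the pool as a random replicate block and also 9 with no block, 1 in the infrarenal arrays alone, 0 in the suprarenal arrays alone and 0 without the mean-variance trend (limma, with 2350 and 1902 at an unadjusted p below 0.05). It was 1 with all probes of a gene averaged, 4 with RNA input as a covariate, and 16, 8 and 7 with a score of brown adipocytes, of skeletal muscle and of sympathetic neurons. Leaving out 1 pool at a time gave 0 to 3, with 0 without pool 8 or pool 11 (2086 and 1201 at an unadjusted p below 0.05) and 1 without pool 6. Quantile normalization, the offset and leaving out the dimmest probes gave 2 each. The cause of these changes was not tested. Probe 95055 turned to -0.14 in the suprarenal arrays alone. Hlf kept its direction in 18 of 18 settings and its call in 12, Ciart its direction in 18 with a call in 6, Tef in 18 with a call in 5 and Hspa1a in 18 with a call in 4. The interaction of class and region called 0 probes in every setting in which it was fitted. With 2 pools against 3 the intervals are wide, and dim probes such as that of Apoe lie near the floor.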

Other observations

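Immune and stromal markers gave no gene apart between the classes. Macrophage markers (12 tested) averaged 3.10 to 3.58 on the Arntl-high and 3.17 to 3.58 on the Arntl-low arrays. Of them 1 was higher at an unadjusted p below 0.05, beside 2.1% of all genes. Mpeg1, a pore-forming protein of macrophages, differed by 0.35 with overlap. T and B cell markers (10 tested) averaged 0.14 to 0.81 and 0.19 to 0.60, with the co-receptor gene Cd8a at 0.58. Adventitial fibroblast markers (11 tested) averaged 4.89 to 5.13 and 4.86 to 5.07, and interferon-stimulated genes (15 tested) had a median difference of -0.06.

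Markers of kidney, adrenal cortex and mesothelium were dim in both classes. Kidney markers averaged -1.15 to -0.64 on the Arntl-high and -0.99 to -0.73 on the Arntl-low arrays, and adrenal cortex markers -1.19 to -0.60 and -1.20 to -0.55. Mesothelial markers averaged -1.38 to -0.54 and -1.44 to -0.84. Schwann cell markers (7 tested) averaged 2.61 to 3.20 and 2.71 to 3.29, and the 3 erythroid markers 0.52 to 0.96 and 0.24 to 2.10.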
